A study of Mus musculus with 8 samples.

Results

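The genes described here encode the translation initiation factors (eIF) and elongation factors (eEF) of mouse, together with the kinases and binding proteins named after them. They were taken as every row of the count tables whose gene symbol starts with Eif or Eef followed by a digit, and there were 64 such genes of 24421 in all. A read was found for 62 of them in at least 1 library, and Eif3j1 and Eif3j2 were at 0 in all 8 libraries. The rule used the symbols only and no measured value.

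The libraries came from R1 mouse embryonic stem cells, an established line, in 2 states. Undiff cells were kept undifferentiated with LIF according to the study's methods, whereas the labels describe every sample as embryoid bodies. Day4 cells were grown as embryoid bodies without LIF and then given retinoic acid for 4 days, at 2 µM in the series design and the study's methods, where the treatment label has 2 mM. Each state was grown as 2 separate cultures, and poly-adenylated RNA was sequenced with the ONT Direct RNA kit (500 ng, native RNA strands) and the ONT cDNA kit (50 ng, reverse transcribed and amplified), which gave 4 groups of 2 libraries. Both kits read RNA of the same duplicate cultures according to the study, so like values on both kits are not values from separate cultures. All groups derive from 1 cell line with no genetic change. The time in culture, the aggregation, the withdrawal of LIF and the retinoic acid changed together between the states and cannot be told apart.

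Between 283461 and 907489 reads of a Direct RNA library were assigned to genes, and for a cDNA library the range was 948657 to 2088592. The 8 pluripotency markers summed to 10660 and 12730 CPM (reads of a gene scaled to 1000000 reads on genes) in Direct RNA Undiff and to 20810 and 23520 in cDNA Undiff, and all 8 were called lower at Day4 on both kits. In Day4 the sum was 116 CPM in replicate 1 and 525 in replicate 2 on Direct RNA, and 85.0 and 923 on cDNA, so replicate 2 was higher on both kits. The 8 retinoic acid response genes summed to between 1.10 and 8.62 CPM in the Undiff libraries of both kits and to between 591 and 953 CPM in the Day4 libraries. The 4 endoderm markers summed to at most 5.74 CPM in any Undiff library and to at least 109 CPM in any Day4 library, and the 6 mesenchyme and fibroblast markers to at most 195 and at least 608 CPM. In the Undiff libraries Gata6 and Afp of the endoderm list and Col1a2, Col3a1 and Postn of the mesenchyme list were at 0 reads on both kits, Gata4, Sox17 and Col1a1 had at most 2 reads, and Vim had 34 to 119. Thy1 had 3 to 8 reads in an Undiff library and 0 to 3 in a Day4 library. These marker levels moved with every difference between states given below, and their part in it was not tested. In bulk RNA, fewer cells of a type and less RNA per cell cannot be told apart.

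Initiation begins when eIF2 with GTP brings the initiator tRNA to the small ribosomal subunit, where eIF1, eIF1A, eIF3 and eIF5 bind. The eIF4 factors recognise the cap of the mRNA and unwind its leader, and start-codon selection is followed by joining of the large subunit with eIF5B. Elongation is then driven by eEF1A, which delivers aminoacyl-tRNAs, and by eEF2, which moves the ribosome along. The phosphorylation of eIF2 and the eIF4E binding proteins are the classical points of control.

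Paralog pairs carried 2 of the differences described below, and their coding sequences are shown first. Words of 31 bases in Eif1b occurred elsewhere only in Gm47081, and those of Eif4a2 only in Gm2999 and Gm18949. Neither gene thus shared such a word with its paralog. The coding sequences of Eif1 and Eif1b (each 342 bases) were identical at 278 positions, or 81.3%. The stretch shown for each is coding bases 1 to 120, from the plus strand of chr11:100319885-100322096 for Eif1 and of chr9:120492232-120495330 for Eif1b (GENCODE transcripts on GRCm38, the assembly also named mm10). Capitals mark the 19 bases at which they differ.
Eif1: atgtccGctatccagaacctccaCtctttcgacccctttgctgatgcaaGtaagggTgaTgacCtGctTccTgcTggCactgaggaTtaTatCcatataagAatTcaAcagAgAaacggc
Eif1b: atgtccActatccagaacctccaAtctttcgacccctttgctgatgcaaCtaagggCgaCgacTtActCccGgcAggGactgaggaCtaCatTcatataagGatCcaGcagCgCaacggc

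Eif4a1 and Eif4a2, the helicases of the cap-binding complex, were identical at 952 of 1221 aligned coding bases (78.0%). The stretch shown is coding bases 37 to 156 of Eif4a1 (minus strand, chr11:69666936-69672423) and 43 to 162 of Eif4a2 (plus strand, chr16:23107444-23114136), with the 24 differing bases in capitals. Eif4a1 had 66.3% of its 31-base words in the transcript of 1 other gene, Eif4a-ps4, against 10.7% of Eif4a2 words in any 1 other gene.
Eif4a1: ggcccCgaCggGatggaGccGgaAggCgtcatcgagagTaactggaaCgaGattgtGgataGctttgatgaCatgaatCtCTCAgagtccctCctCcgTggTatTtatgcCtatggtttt
Eif4a2: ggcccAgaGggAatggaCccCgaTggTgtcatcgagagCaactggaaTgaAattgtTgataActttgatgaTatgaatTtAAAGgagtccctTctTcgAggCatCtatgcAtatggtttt

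The first question was how much of the transcriptome these genes take up and whether that share differed between states. The 64 genes took 4.72% ± 0.242 (SD, n = 2) of reads in Direct RNA Undiff and 4.63% ± 0.327 in Day4, and 3.58% ± 0.258 against 3.24% ± 0.125 in cDNA. Eef1a1 alone made up a large part of this. Without Eef1a1 the share was 3.11% and 2.98% in the Direct RNA Undiff libraries against 2.44% and 2.38% in Day4. On the cDNA kit it was 2.95% and 3.16% in Undiff against 2.36% and 2.39% in Day4, so the states did not overlap on either kit. With 2 libraries a group, an exact permutation test of 1 value could not reach a p below 0.05, and none is given.

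Levels were also scaled per kilobase of the longest annotated protein-coding transcript. On that scale Eef1a1 was highest of the 64 genes on both kits, with 10870 CPM per kb in Direct RNA and 3891 in cDNA. Eef1b2 (1839 CPM per kb), Eif5a (1694) and Eef2 (1190) followed in Direct RNA, and Eif1 (3150), Eif5a (2398) and Eif3k (1562) in cDNA. The 4 eIF2 alpha kinases had levels from 3.32 to 13.2 CPM per kb on the Direct RNA kit and from 0.340 to 2.44 on the cDNA kit. The order given here holds only for the scaled values.

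Between Undiff and Day4, 12 of the factors changed past the test on at least 1 kit, 11 of them downwards and Eif1b upwards. A gene was called with DESeq2 when its Benjamini-Hochberg adjusted p-value was at most 0.05, its log2 fold change at least 1 in size and its mean normalised read count at least 5. On Direct RNA, 10 of the 57 factors tested (17.5%) were called lower at Day4, beside 7.67% of all 9646 genes tested, and 1 was called higher, beside 9.54% of all genes. On cDNA, 9 of 57 (15.8%) were called lower, beside 9.24% of 10271 genes, and 1 higher, beside 8.69%. With edgeR on Direct RNA, 13 factors were called lower, beside 15.1% of all genes, and 1 higher, beside 18.7%, and on cDNA 11 lower, beside 15.5%, and 3 higher, beside 17.1%. All calls of DESeq2 were among them, and those added were Eif2b1, Eif2b3 and Eif2s3y on Direct RNA and Eef1g, Eif2b3, Eif4e3 and Eif4g3 on cDNA. In what follows, called refers to DESeq2 unless edgeR is named. The median log2 fold change of the factors was -0.61 on Direct RNA and -0.44 on cDNA, where that of all genes tested was 0.03 and 0.00. Of the 57 factors, 45 were below 0 on each kit, beside 48.94% of all genes on Direct RNA and 49.95% on cDNA. Of the 56 tested on both kits, 41 were below 0 on both, a count for which no all-gene share was taken.

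The CPM ranges of the libraries, which use no threshold, also leaned downwards. Both Day4 libraries were under both Undiff libraries for 34 of the 57 factors in Direct RNA (30.3% of all genes) and above them for 8 (37.3%). In cDNA they were under for 20 of 57 (23.2%) and above for 12 (43.1%). On both kits together, 19 of 56 factors were lower without overlap (17.9% of all genes) and 6 were higher (29.9%).

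**Figure D1:**
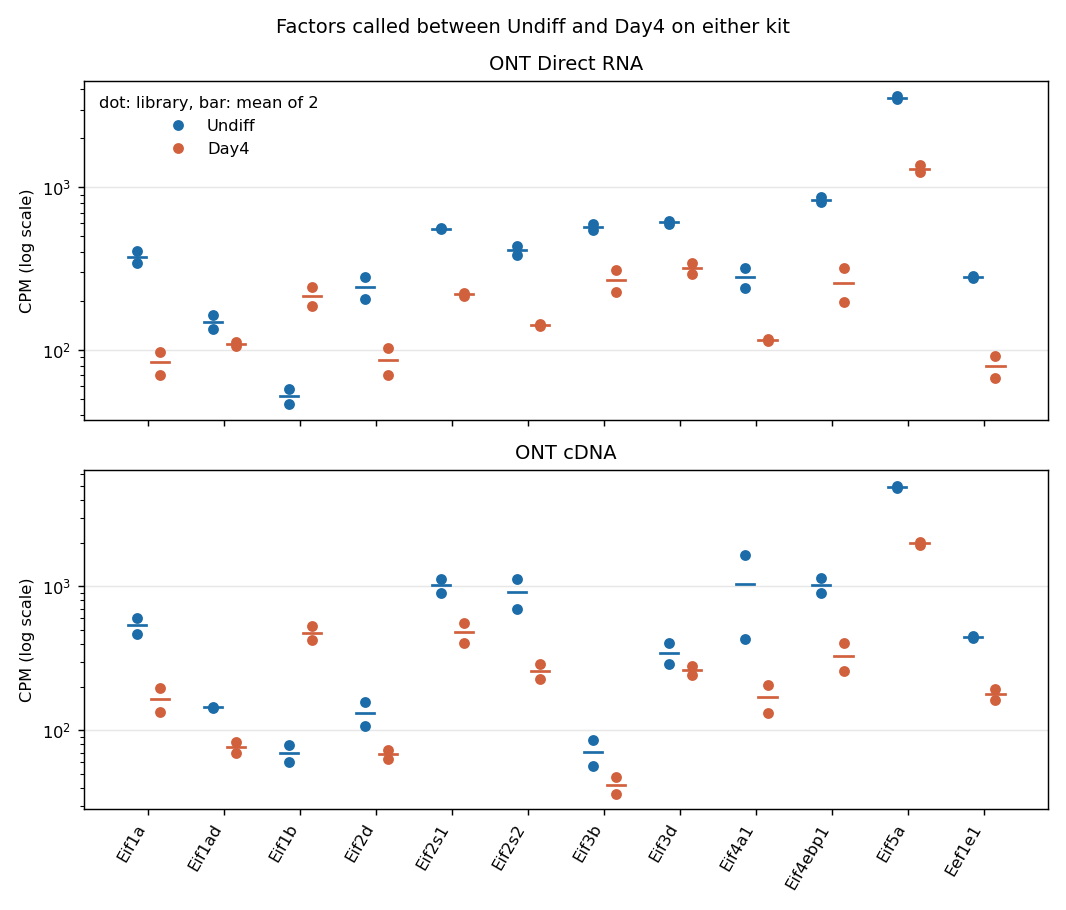
CPM (log scale) of the 12 factors called between states on at least 1 kit, with 1 dot for each library and a bar for the mean of 2, Undiff in blue and Day4 in orange, ONT Direct RNA above and ONT cDNA below. Eif1b is the 1 gene with its Day4 dots above its Undiff dots, and in cDNA the Undiff libraries of Eif4a1 lie at 1640 and 429 CPM.

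The alpha and beta subunits of eIF2 fell on both kits, and neither gamma subunit gene was called with DESeq2. Eif2s1 encodes the alpha subunit, the one that the stress kinases phosphorylate, and was at 562 and 554 CPM in Direct RNA Undiff and 226 and 216 in Day4. In cDNA it was at 902 and 1130 CPM in Undiff and 407 and 559 in Day4. Its log2 fold change was -1.43 ± 0.31 (SE) on Direct RNA (DESeq2 adjusted p = 0.00012) and -1.39 ± 0.36 on cDNA (adjusted p = 0.0024), and the states did not overlap on either kit.

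Eif2s2, the beta subunit, was at 433 and 386 CPM in Direct RNA Undiff against 145 and 141 in Day4. In cDNA it was at 692 and 1129 CPM against 228 and 291. The log2 fold changes were -1.60 (DESeq2 adjusted p = 9.58e-05) and -2.10 (adjusted p = 2.41e-06). The gene shares 32.1% of its 31-base words with Gm9892, whose reads could be split with it.

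The gamma subunit has an X-linked and a Y-linked copy, Eif2s3x and Eif2s3y, 86.3% identical in coding sequence. Eif2s3y had 32.2 CPM per kb in Direct RNA and 28.6 in cDNA, while Eif2s3x had 1.81 and 0.770 and between 0 and 11 reads in a library. In the X-linked copy 36.5% of 31-base words also occur in the Gm2223 transcript, and its counts are therefore uncertain. Eif2s3y was at 89.0 and 70.5 CPM in Direct RNA Undiff against 38.8 and 38.0 in Day4, with an adjusted p of 0.27 by DESeq2 and a call by edgeR (log2 fold change -1.12, adjusted p = 0.034), and in cDNA its states overlapped. Eif2s3x had a mean under 5 on each kit and could not be called.

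Eif2d, which can deliver tRNA without GTP, was called lower on both kits. It was at 281 and 205 CPM in Direct RNA Undiff against 70.6 and 103 in Day4, a log2 fold change of -1.51 (DESeq2 adjusted p = 0.0054). In cDNA 108 and 158 CPM stood against 72.8 and 63.5, a log2 fold change of -1.25 (adjusted p = 0.046). The cDNA call of Eif2d was lost with TMM size factors (DESeq2 adjusted p = 0.0502) and when only genes with 10 reads or more in each library were tested (adjusted p = 0.0517). Eif2a, a separate tRNA-binding factor despite its name, was at -0.61 and -0.67 and was not called. Summed over the 6 genes of tRNA delivery, the Day4 level in CPM was 43.0% of Undiff on both kits.

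None of the 5 subunits of eIF2B, the exchange factor that recharges eIF2, was called on either kit with DESeq2, and all 10 fold changes were below 0. With edgeR, Eif2b1 was called lower on Direct RNA (log2 fold change -1.09, adjusted p = 0.015) and Eif2b3 on both kits (adjusted p = 0.0023 and 0.041). Their medians were -0.88 on Direct RNA and -0.75 on cDNA, and the sums of the 5 were 672 and 707 CPM in Direct RNA Undiff against 353 and 408 in Day4, and 465 and 620 against 404 and 423 in cDNA. In CPM the Day4 sum was thus 55.2% of Undiff on Direct RNA and 76.2% on cDNA. With DESeq2 Eif2b3 had the lowest values, -1.55 (adjusted p = 0.12) and -1.12 (adjusted p = 0.094). The 4 eIF2 alpha kinases had few reads. Eif2ak1 (HRI) was at 66.0 and 80.4 CPM in Direct RNA Undiff against 42.3 and 39.3 in Day4, Eif2ak2 (PKR) ranged from 5.74 to 28.2 CPM in Direct RNA, and none of the 4 was called between states on either kit.

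Of the 7 genes of the eIF1, eIF1A, eIF5 and eIF5B families, Eif1a fell and Eif1b rose on both kits, Eif1ad fell on cDNA, and the other four were not called. Eif1a, a copy of eIF1A, was at 344 and 404 CPM in Direct RNA Undiff against 70.6 and 97.6 in Day4, and at 470 and 608 against 134 and 196 in cDNA. Its log2 fold changes of -2.19 (DESeq2 adjusted p = 7.49e-07) and -2.01 (adjusted p = 6.22e-06) put it among the 3 lowest mean changes over both kits. The X-linked copy Eif1ax was at -0.36 and -0.71 and was not called.

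Eif1b, a copy of the start-codon fidelity factor eIF1, rose on both kits. It was at 57.4 and 46.3 CPM in Direct RNA Undiff against 187 and 244 in Day4, and at 79.1 and 60.8 against 530 and 426 in cDNA. The log2 fold changes were 1.94 ± 0.45 (DESeq2 adjusted p = 0.00045) and 2.42 ± 0.42 (adjusted p = 6.09e-07). Eif1 itself, at 1423 and 1349 CPM in Direct RNA Undiff and 1072 and 1345 in Day4, was not called, with 95% intervals of its log2 fold change from -0.80 to 0.22 on Direct RNA and from -1.21 to 0.18 on cDNA.

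As a share of the reads of the pair, Eif1b took 3.88% and 3.32% in Direct RNA Undiff and 14.9% and 15.4% in Day4. On the cDNA kit it took 1.73% and 1.36% against 11.9% and 9.98%. The 2 states did not overlap on either kit, and Eif1 still held most reads of the pair in every library. Eif1b overlaps D830035M03Rik on the opposite strand, and for these gene counts the study's methods name strand-specific counting for Direct RNA alone. Eif1 has 23.5% of its 31-base words in 1 other gene and Eif1b 0.20%.

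**Figure D2:**
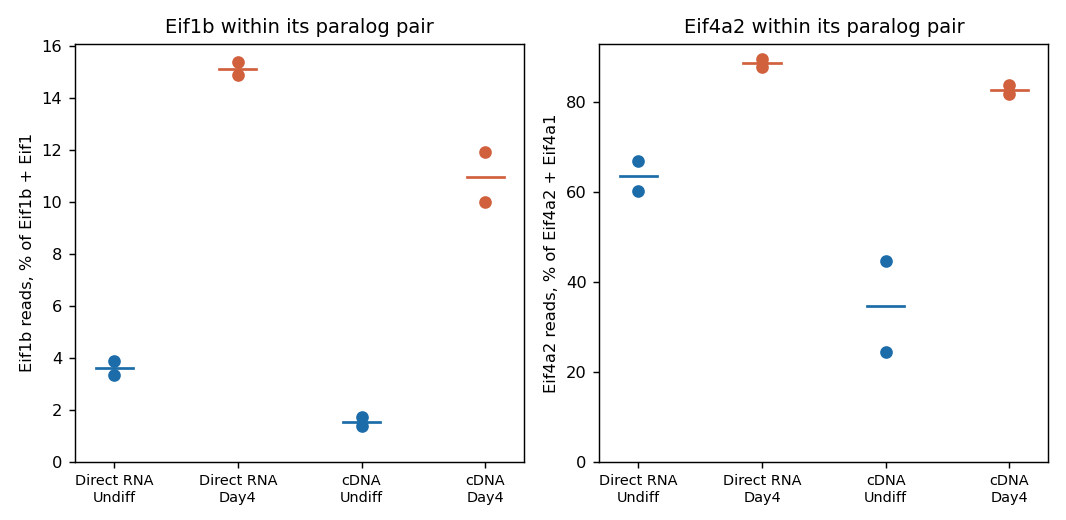
Reads of Eif1b as a percent of Eif1b plus Eif1 (left) and of Eif4a2 as a percent of Eif4a2 plus Eif4a1 (right), by group, with 1 dot for each library and a bar for the mean of 2. Both shares are higher in the Day4 libraries (orange) than in the Undiff libraries (blue) of the same kit, with Eif4a2 between 24.5% and 67.0% in Undiff and between 81.7% and 89.7% in Day4.

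Eif1ad, a relative of eIF1A, was called on cDNA alone, at 143 and 146 CPM in Undiff against 83.4 and 69.3 in Day4 (log2 fold change -1.21, DESeq2 adjusted p = 0.048). It lost the call when genes under 10 reads in a library were dropped (-0.99, adjusted p = 0.055) and in each fit without 1 cDNA library. In Direct RNA the values were 164 and 134 against 106 and 113, a log2 fold change of -0.52 (adjusted p = 0.60). Eif5, which makes eIF2 hydrolyse its GTP, was at -0.85 (adjusted p = 0.052 on Direct RNA) and -0.81. Eif5b, the subunit joining factor, was at -0.81 and -0.08, and Eif6, which keeps the subunits apart, at -0.99 and -0.88, and neither was called.

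Among the cap-binding factors the helicase Eif4a1 fell and its paralog Eif4a2 did not. Eif4a1 was at 321 and 242 CPM in Direct RNA Undiff against 116 and 114 in Day4, a log2 fold change of -1.36 ± 0.38 (DESeq2 adjusted p = 0.0058). In cDNA it was at 1640 and 429 CPM against 132 and 208, a log2 fold change of -2.90 ± 0.54 (adjusted p = 3.35e-06). The Undiff replicates were thus far apart in cDNA, with 1556 reads in the smaller library and 896 in the larger one. Leaving out each cDNA library in turn moved the log2 fold change between -3.62 and -1.64, and without either Day4 library it was no longer called.

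Eif4a2 was at 485 and 491 CPM in Direct RNA Undiff against 1009 and 819 in Day4, and at 531 and 347 against 679 and 930 in cDNA. Both Day4 libraries were above both Undiff libraries on each kit. The log2 fold change was 0.78 on Direct RNA, with an adjusted p of 0.044 by DESeq2 but a size under the threshold of 1, and 0.51 on cDNA (adjusted p = 0.57). Within the pair, Eif4a2 took 60.1% and 67.0% of reads in Direct RNA Undiff against 89.7% and 87.8% in Day4. In cDNA it took 24.5% and 44.7% against 83.7% and 81.7%. Eif4a1 has 67.55% of its 31-base words in other genes and Eif4a2 16.88%, and the part of this in the shares was not tested. Eif4a2 overlaps Rfc4 on the opposite strand and several small RNA genes on its own. Eif4a3, the exon junction helicase, was not called, at -0.85 (adjusted p = 0.051) and -0.35.

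The cap-binding protein eIF4E and its scaffolds showed no call with DESeq2. Eif4e was at 204 and 213 CPM in Direct RNA Undiff against 159 and 136 in Day4, with a log2 fold change between -1.37 and 0.15 at 95%. Eif4e2, which competes for the cap, was at -0.65 on each kit. Eif4e3 had between 1 and 4 reads in Direct RNA libraries, and in cDNA 3 and 1 reads in Undiff stood against 18 and 26 in Day4 (DESeq2 adjusted p = 0.16, edgeR adjusted p = 0.0018). The scaffolds Eif4g1 and Eif4g2 were at -0.27 and -0.40 on Direct RNA and at -0.14 and -0.09 on cDNA. Their long relative Eif4g3 had 1 of the 3 highest mean changes, 0.67 and 1.39, and was not called with DESeq2 (adjusted p = 0.67 and 0.28). With edgeR it was called higher on cDNA (log2 fold change 1.39, adjusted p = 0.032), and its cDNA Undiff libraries held 2 and 43 reads.

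Eif4ebp1, the repressor that takes eIF4E out of the cap complex when mTOR is inactive, fell on both kits. It was at 812 and 873 CPM in Direct RNA Undiff against 198 and 321 in Day4, a log2 fold change of -1.76 ± 0.32 (DESeq2 adjusted p = 2.44e-06). In cDNA 1148 and 899 CPM stood against 404 and 257, a log2 fold change of -1.90 (adjusted p = 0.00017). Eif4ebp2 was at 155 and 179 CPM in Direct RNA Undiff against 98.8 and 89.5 in Day4 and was not called (adjusted p = 0.18), and Eif4ebp3 had between 1 and 8 reads in every library. The fourth gene of this group, Eif4enif1, which carries eIF4E into the nucleus, was at -0.05 and 0.28 and was not called.

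Of the eIF3 subunits, which form the scaffold on the small ribosomal subunit, 12 of 14 were tested, 2 fell on Direct RNA and none was called on cDNA. Eif3b, a core subunit, was at 551 and 593 CPM in Direct RNA Undiff against 310 and 226 in Day4 (log2 fold change -1.20, DESeq2 adjusted p = 0.0026). Eif3d, the subunit with its own cap-binding activity, was at 600 and 624 CPM against 293 and 342 (log2 fold change -1.03, adjusted p = 0.0085), and it was at -0.87, under the fold threshold, when genes under 10 reads in a library were dropped. In cDNA Eif3b was at -1.07 (adjusted p = 0.17) and Eif3d at -0.71 (adjusted p = 0.31), and the test of kit by state called neither.

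The eIF3 subunits did not move as 1 block. Eif3c (-0.83), Eif3g (-0.90) and Eif3l (-0.95) had adjusted p-values of at most 0.048 by DESeq2 on Direct RNA with fold changes under the threshold. Eif3f, Eif3h and Eif3e were at 0.51, 0.19 and -0.09 on Direct RNA and at 0.46, -0.04 and 0.05 on cDNA. Eif3f was at 717 and 812 CPM in Direct RNA Undiff against 1139 and 1224 in Day4 (adjusted p = 0.24), and at 19.0 and 22.0 against 37.9 and 33.2 in cDNA, without overlap on either kit. Without the fold threshold, 17 factors passed on Direct RNA in place of 11, beside 17.8% of all genes, and the 6 added were Eif3c, Eif3g, Eif3l, Eif6, Eef1d and, in the upward direction, Eif4a2.

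**Figure D3:**
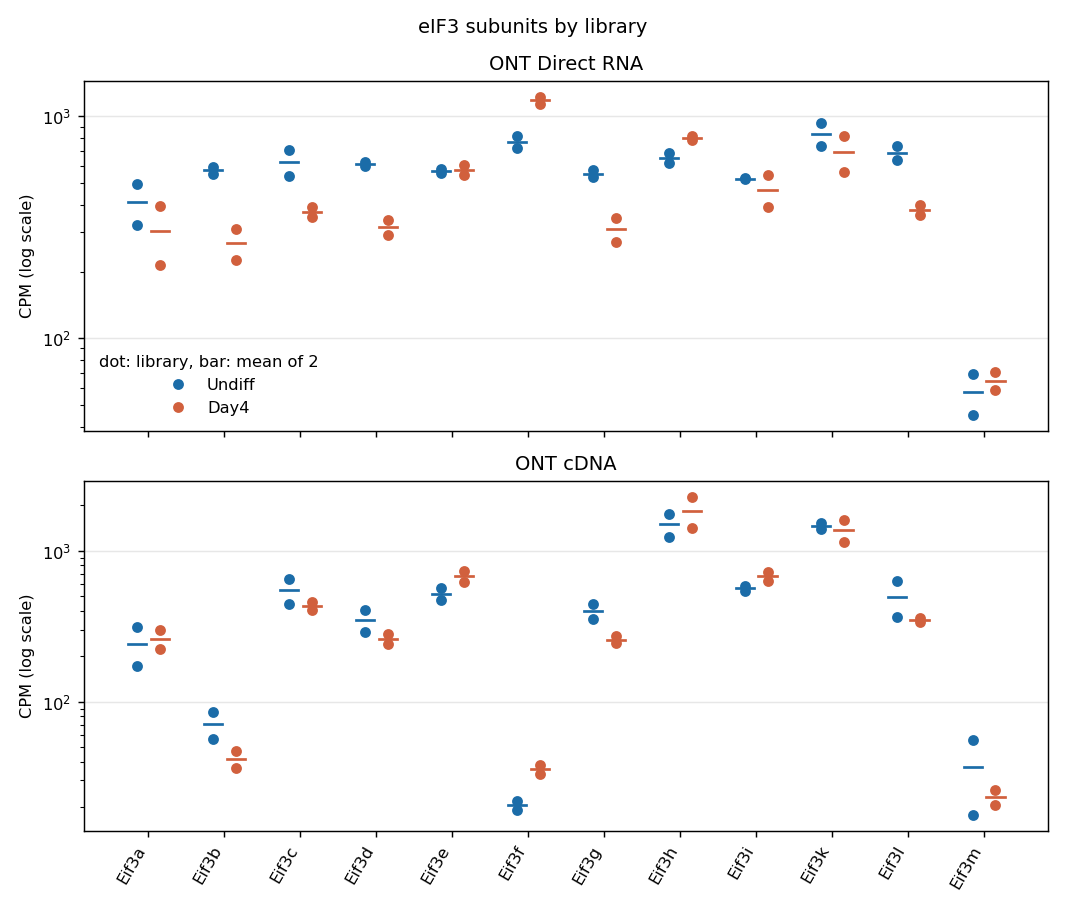
CPM (log scale) of the 12 eIF3 subunits with reads, with 1 dot for each library and a bar for the mean of 2, Undiff in blue and Day4 in orange, ONT Direct RNA above and ONT cDNA below. Eif3f lies between 717 and 1224 CPM on Direct RNA and between 19.0 and 37.9 CPM on cDNA, and in both panels its Day4 dots are above its Undiff dots.

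Eif5a, the hypusinated factor that helps the ribosome through difficult peptide bonds and was among the most abundant members, had the smallest adjusted p on Direct RNA. It was at 3625 and 3502 CPM in Undiff against 1235 and 1377 in Day4, a log2 fold change of -1.54 ± 0.24 (DESeq2 adjusted p = 1.07e-08). In cDNA it was at 4797 and 5012 CPM against 1927 and 2045, a log2 fold change of -1.61 ± 0.35 (adjusted p = 0.00012). Its Day4 level was thus 34.4% and 32.8% of Undiff in the fit. The second copy, Eif5a2, stayed between 8.43 and 17.8 CPM over all 8 libraries and was at 0.01 and 0.15. Dohh, which completes the hypusine on eIF5A and is no member of the family, was called lower as well, at -1.55 on Direct RNA (adjusted p = 0.0055) and -1.54 on cDNA (adjusted p = 0.016), while Dhps, the enzyme of the step before, was not called, at -0.68 and -1.79.

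None of the genes for eEF1A, its exchange complex and eEF2 was called between states on either kit with DESeq2. Eef1a1 was at 17820 and 15680 CPM in Direct RNA Undiff against 24290 and 20240 in Day4, and at 4523 and 6088 against 7906 and 9402 in cDNA. In CPM the states did not overlap on either kit, as in 29.9% of all genes in that direction. The fitted log2 fold changes of 0.30 (95% interval -0.14 to 0.75) and 0.38 (-0.31 to 1.07) were not called. Eef1a1 has 71.4% of its 31-base words in transcripts of other genes. Eef1a2, the copy of muscle and neurons, had 10 reads in the 4 Direct RNA libraries together and none in the 4 cDNA libraries.

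Eef2, the translocase, was at 3610 and 3176 CPM in Direct RNA Undiff against 4498 and 3421 in Day4, and the log2 fold changes were 0.12 (-0.36 to 0.59) and 0.00 (-0.73 to 0.73). Its kinase Eef2k and the methyltransferase Eef2kmt were between -0.31 and 0.28 on both kits. In the exchange complex of eEF1A, Eef1b2 was at -0.09 and -0.34 and was not called. Eef1d was at -0.90 (adjusted p = 0.020) on Direct RNA and -0.97 (adjusted p = 0.071) on cDNA, under the fold threshold. Eef1g was at -0.17 and -1.09 (adjusted p = 0.081 on cDNA, where edgeR called it at 0.041) and has 63.1% of its 31-base words in Gm4366.

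Eef1e1, which carries an elongation factor's name but encodes a scaffold protein of the aminoacyl-tRNA synthetase complex, fell on both kits. It was at 278 and 285 CPM in Direct RNA Undiff against 67.0 and 92.2 in Day4, a log2 fold change of -1.86 (DESeq2 adjusted p = 0.00012). In cDNA 441 and 455 CPM stood against 162 and 194, a log2 fold change of -1.64 (adjusted p = 0.00032). None of its 31-base words occurs in another gene.

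**Figure D4:**
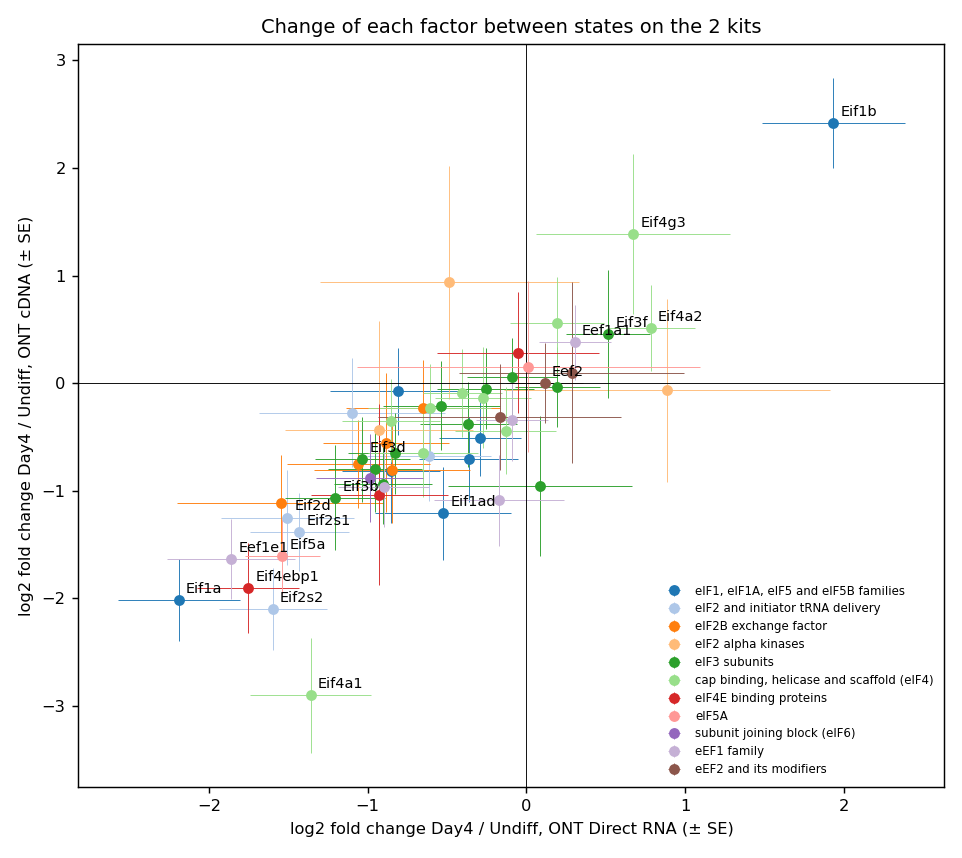
Log2 fold change of Day4 over Undiff for the 56 factors tested on both kits, ONT Direct RNA on the x axis and ONT cDNA on the y axis, with bars of 1 SE and colours for the functional groups. Eif1b stands at 1.94 and 2.42 in the upper right, and 41 of the 56 lie below 0 on both axes.

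The calls rest on few libraries. A fit between states without 1 library leaves a single library in that state, so the spread between replicates comes from the other state. Without each Direct RNA library in turn the count of factors called was 5 (without Undiff replicate 1), 1 (without Undiff replicate 2), 8 (without Day4 replicate 1) and 6 (without Day4 replicate 2), where calls over all genes fell from 1660 to between 393 and 797. On cDNA the count was 8 without either Undiff library and 5 without either Day4 library, where calls over all genes fell from 1842 to between 709 and 1020. Eif5a was called in all 8 of these fits, and on cDNA Eif1a, Eif1b and Eif2s2 were called in all 4. On Direct RNA Eif1b was called in 1 of the 4 fits (without Day4 replicate 1), with log2 fold changes from 1.65 to 2.11, as was Eif3b, and on cDNA Eif2s1 was called in 1 of 4 (without Undiff replicate 1). Eif2d on both kits, Eif3d and Eif4a1 on Direct RNA and Eif1ad on cDNA were not called in any of the 4 fits of that kit, with log2 fold changes from -1.81 to -1.21 and from -1.49 to -1.0 for Eif2d, -1.18 to -0.86 for Eif3d, -1.51 to -1.26 for Eif4a1 and -1.37 to -0.94 for Eif1ad.

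Whether a change between states depended on the kit was tested with an interaction term. With DESeq2 none of the 62 factors was called, beside 0.0116% of 17267 genes (Clmp and Plvap), and edgeR called none either. At an unadjusted p under 0.05 there was 1 factor, Eif4a1, beside 161 of all 17267 genes. Its interaction was -1.66 ± 0.74 on the log2 scale (DESeq2 adjusted p = 0.9999). Without cDNA Undiff replicate 2, the interaction of Eif4a1 was -2.41 ± 0.56 and was called (adjusted p = 0.025). The 3 factors called on 1 kit alone are thus not shown to differ between kits in their change.

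Over all 8 libraries, with state in the model, 31 of 58 factors (53.4%) were called between kits, a share near the 51.3% of all 10426 genes. Of the factors, 20 (34.5%) were called higher in cDNA, beside 24.7% of genes, and 11 (19.0%) lower, beside 26.6%. When genes under 10 reads in a library were dropped, 11 of 47 factors (23.4%) were called higher, beside 23.2% of genes, and 9 (19.1%) lower, beside 23.7%. The median of the factors was 0.46 on the log2 scale and that of all genes -0.02. Eif3f had the widest difference, with 250, 737, 323 and 903 reads in the Direct RNA libraries against 18, 46, 50 and 69 in the deeper cDNA libraries, a log2 fold change of -4.37 ± 0.21 (DESeq2 adjusted p = 1.24e-95). That is 4.83% of the Direct RNA level, and Eif3f shares 0.40% of its 31-base words with another gene.

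Eif2ak3 (-3.02), Eif4ebp2 (-2.78), Eif2ak1 (-2.38) and Eif2b5 (-2.11) were the next lowest in cDNA among the factors called. In the cDNA libraries Eif2ak3 had 1, 4, 1 and 5 reads and Eif2ak1 had 4, 17, 4 and 17. The rule of 10 reads in every library dropped both, and also Eif4ebp2 with a least count of 7. Eif4ebp2 was at 155, 179, 98.8 and 89.5 CPM in Direct RNA and between 5.31 and 19.2 CPM in cDNA, and Eif2b5 at 118 to 227 CPM against 13.7 to 27.8. Eif2ak1 overlaps Aimp2 and Ankrd61 on the opposite strand. Among the eIF3 subunits, Eif3b joined Eif3f on the lower side at -2.08, so on cDNA these subunits stood at 11.2 (Eif3f) and 19.2 (Eif3b) CPM per kb and Eif3k at 1562, where on Direct RNA the 3 had 387, 143 and 839.

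Eif1 (2.43), Eif4a1 (1.96), Eif3h (1.93), Eif5b (1.79) and Eif2s2 (1.75) had the highest values in cDNA among the factors called. Eif4a1 (SE 0.44) was at 1.32 without cDNA Undiff replicate 1, the library at 1640 CPM. Eif1 lay between 1072 and 1423 CPM in the Direct RNA libraries and between 3844 and 4482 in cDNA, without overlap. Eif3h reached at most 815 CPM in a Direct RNA library and at least 1243 in a cDNA library. Eef1a1 (-0.76) and Eef2 (-0.73) were lower in cDNA with adjusted p-values under the threshold by DESeq2 but with a fold under it.

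Longer genes tended to be lower in cDNA. Length was first taken from the longest annotated transcript of any type. Its Spearman correlation with the kit difference was -0.32 across the 58 factors and -0.30 across 10394 genes. Genes share their libraries and are not independent, so these are descriptions. By this length, 33 factors were at or under the all-gene median of 3316 bases, with a median kit difference of 0.64. The 25 longer ones had 0.11, where all genes had 0.52 and -0.55. By the longest protein-coding transcript, Eif5b, at 7797 bases, and Eif3f, at 2514 bases, lay away from that order. The kits also differed in amplification, input and read processing, and their parts cannot be told apart.

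**Figure D5:**
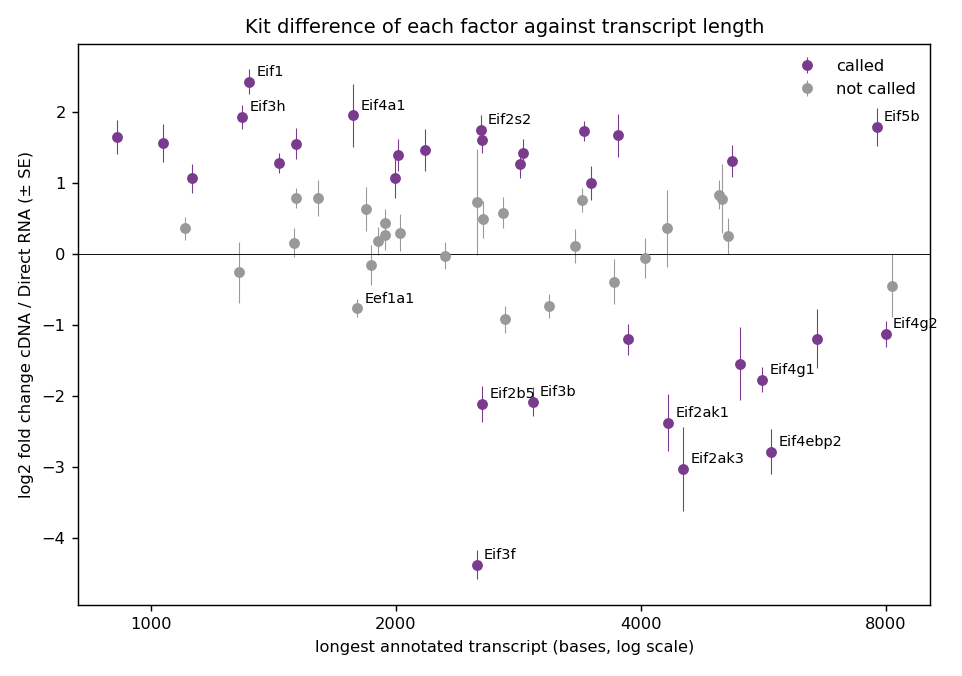
Log2 fold change of cDNA over Direct RNA (bars of 1 SE) against transcript length for the 58 factors tested. Called factors are in purple and others in grey. Length is that of the longest annotated protein-coding transcript (bases, log scale). Eif3f stands lowest at -4.37, and Eif1 highest at 2.43.

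Other genes of translation that do not carry these names were compared in the same fits. Of a list of 40 (release factors, poly(A)-binding proteins, mitochondrial factors, mTOR pathway genes and others), 4 of the 40 tested on Direct RNA were called lower, beside 7.67% of all genes, and 1 higher, beside 9.54%. On cDNA 1 of the 38 tested was called lower, beside 9.24%. Etf1, the release factor that reads stop codons, was at -1.74 on Direct RNA (DESeq2 adjusted p = 1.20e-06) and -1.25 on cDNA (adjusted p = 0.068). Abce1 and Abcf1, ATPases of ribosome recycling and initiation, were at -1.09 and -1.24 on Direct RNA and were not called on cDNA. Paip1, which binds poly(A)-binding protein, rose on Direct RNA at 2.17 (adjusted p = 0.0005) and was at 0.85 on cDNA. The list's median was -0.49 on Direct RNA and -0.59 on cDNA.

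The promoters were searched for the E-box CACGTG, the site bound by Myc and Max among others, in the 250 bases before each RefSeq start site on GRCm38.p6. The letters read the same on both strands. Of the 50 factors with a promoter entry, 11 (22.0%) held the letters, beside 6.86% of 27025 genes and 10.3% of the 8583 genes that reached the mean count minimum of 5 on either kit. Of the 9 with an entry that were called lower at Day4, 2 held it (Eif4a1 and Eif5a), as did Eif1b, the one called higher, and 8 of the 40 not called. The match is a description of the letters and not of binding. The letters occurred at 1 place in the Eif4a1 and Eif1b windows and at 2 in those of Eif5a, and all are shown with 12 bases on each side, in the direction of the gene and with the motif in capitals. They lie at chr11:69672595-69672624 (minus strand) for Eif4a1, chr11:69921443-69921472 and chr11:69920791-69920820 (minus strand) for Eif5a and chr9:120492570-120492599 (plus strand) for Eif1b.
Eif4a1: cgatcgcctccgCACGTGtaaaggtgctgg
Eif5a: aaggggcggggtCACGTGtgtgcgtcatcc
Eif5a, second site: gcgctgcgcggcCACGTGaggtgggggagg
Eif1b: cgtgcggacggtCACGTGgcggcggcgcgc

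Members with few reads limit what can be said of them. Between the states 7 factors were under the mean of 5 on each kit and could not be called, and 5 of the 64 had fewer than 10 reads in every library. The 0 reads of Eif3j1 and Eif3j2 allow up to 3 reads, or 1.44 to 10.6 CPM depending on the library, and 41.0% of the 31-base words of Eif3j1 occur in Eif3j2 and 94.0% of those of Eif3j2 in Eif3j1. In each library between 18.5% and 28.0% of the reads in the count table stood in the row for too low mapping quality.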

How the data were processed

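Read counts per gene from 8 libraries (4 groups of 2) were used as deposited by the authors, who aligned nanopore reads with minimap2 to mm10 and counted them with HTSeq on a UCSC annotation, with strand for Direct RNA. Tools and build are named in the submitters' processing notes and the study's methods, which also state that replicates were grown and treated separately. Rows that name no gene (no feature 8.84% to 15.8% of a table, ambiguous 1.21% to 5.04%, low mapping quality 18.5% to 28.0%, not aligned 0% to 29.1%) were left out of library sizes. Counts were fitted in R 4.3.3 with DESeq2 1.42.0 (Wald test, shrunken fold changes, no Cook or independent filtering) over all genes with a read, by state within each kit (4 libraries), by kit with state as covariate, and with their interaction. Called meant a mean of at least 5, an adjusted p up to 0.05 and a log2 change of 1 or more in either direction (interaction: adjusted p only). The design had no replicate block, and edgeR 4.0.16 (quasi-likelihood, TMM), other scaling, filters and left-out libraries were alternatives. Scripts were tested on simulated counts. Total reads on genes, from 283461 to 2088592, gave the depth. Intervals of fold changes are from DESeq2's SE, which holds the spread between replicates (chi-square per degree of freedom 2.68 to 14.9), and floors cover counting error only. Annotation was GENCODE for GRCm38 and RefSeq for GRCm38.p6, and all 64 symbols matched.

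The factors, the lists of other translation genes and markers, and the motif were chosen with earlier results of these data known. Named were the factors called in any comparison (for the kits, the 5 highest and 5 lowest), the 3 highest and 3 lowest mean changes between states, the 8 with the highest mean CPM, and paralog sets.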

Additional observations from a re-analysis of the deposited data

How the results depend on the processing

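With 2 libraries a group, the calls moved with the libraries used. Leaving out each library in turn gave 1 to 8 factors called between states on Direct RNA (1 without Undiff replicate 2) and 5 to 8 on cDNA (5 without either Day4 replicate), 27 to 31 between kits and 0 to 1 for kit by state (1 without cDNA Undiff replicate 2). The median log2 fold change of the factors then ranged from -0.64 to -0.55 on Direct RNA, from -0.57 (without cDNA Undiff replicate 1) to -0.37 (without cDNA Undiff replicate 2) on cDNA, and from 0.41 to 0.52 between kits. Without the fold threshold, 17 factors passed on Direct RNA in place of 11. With at least 10 reads in every library, a rule that left 4579 genes on Direct RNA (723 called), 5351 on cDNA (989 called) and 3567 between kits (1674 called), 20 factors were called between kits in place of 31, the median was 0.19 between kits and -0.49 on Direct RNA, and Eef1b2 between kits turned from 0.26 to -0.14. Under edgeR, TMM size factors, no shrinkage and the filters of DESeq2, each count of factors called and each median stayed within 1.5 times or 1 SD of the main value. Upward calls on cDNA were 3 with edgeR in place of 1, and over all genes edgeR called 3267 in place of 1660 on Direct RNA, 3355 in place of 1842 on cDNA and 14 in place of 2 for kit by state.

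The kits read RNA of the same cultures, but the sources used here do not say that equal numbers mark 1 culture or batch, so same-numbered samples were taken to share only a number. Between the states their deviations correlated at 0.21 (Direct RNA) and 0.50 (cDNA) over 1395 genes, and the fit with the replicate block called 9 factors on Direct RNA in place of 11 and 8 on cDNA in place of 10, with all-gene calls of 843 and 1375. Between kits the correlations were 0.12 (Undiff) and -0.42 (Day4), and the replicate block called 30 factors, beside 5049 of 10426 genes. The block lost Eif4e2 (log2 change 0.98 in place of 1.00) and changed no other call of a factor. With the Day4 numbers crossed, an alternative added after seeing the data, 31 factors were called between kits, beside 5081 of 10426 genes. For kit by state 0 were called, beside 1 of 17267 genes. With at least 10 reads, Eif3d lost its call on Direct RNA and Eif1ad and Eif2d on cDNA, and TMM size factors also lost Eif2d on cDNA. Eif2d and Eif4a1 on Direct RNA and Eif1ad and Eif2d on cDNA were the calls lost under the block. Their log2 fold changes were -1.51, -1.34, -1.22 and -1.24, beside -1.51, -1.36, -1.21 and -1.25 in the main fit. Their DESeq2 adjusted p-values under the block lay between 0.052 and 0.076.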
